A study of Mus musculus with 9 samples.

Results

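Plasma cells are followed here in mouse duodenum through 9 genes of their identity and secretory machinery. The genes were taken by name from the deposited table, and all 9 were found among its 54532 genes. They are the surface receptors Tnfrsf17 and Sdc1, the transcription regulators Prdm1, Xbp1, Pou2af1 and Eaf2, and the endoplasmic reticulum proteins Mzb1, Derl3 and Txndc5. RNA of duodenal tissue was sequenced in 3 groups of 3 libraries, and a library is called by its group and its replicate number. Control mice were wild type and had gluten stimulation that was not enhanced. CeD mice carried a delayed-type hypersensitivity (DTH) model of celiac disease, the immune disease of the small intestine driven by gluten, and had enhanced gluten stimulation. CeD+GR mice carried that model and had the enhanced stimulation too, after they had been given nanoparticles of gliadin, a gluten protein fraction, and rapamycin, an inhibitor of the mTOR kinase. All 3 groups therefore met gluten, and no group received the particles without the model. The labels name no strain, age or sex for these groups, and they do not say that the libraries came from separate animals. The p-values then speak only of the spread among these samples, and that spread may be technical.

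Plasma cells are B cells that have matured into antibody factories. In the wall of the small intestine most of them make IgA, which is joined by the J chain and carried across the epithelium by the receptor Pigr. Maturation runs through Prdm1 (Blimp-1), which turns off the B cell programme, and Xbp1, which enlarges the endoplasmic reticulum so that large amounts of antibody can be folded and exported. Xbp1, Txndc5 and Sdc1 are not restricted to plasma cells, because gland and epithelial cells of the gut use them too. In bulk tissue, fewer plasma cells and less RNA per plasma cell cannot be told apart.

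The libraries held 15373260 to 16852104 reads in genes, of which mitochondrial transcripts made up 4.15% to 10.2%. Levels are in FPKM, that is, scaled to gene length and to a size of the library. The size that the FPKM imply was not the number of reads in genes. It was 14641212 in control 2, against 16372119 reads, and 18206426 in control 1, against 16185014 reads. Genes that averaged 0.5 FPKM or more over the 9 libraries were tested, 14683 in number, and all 9 plasma cell genes passed that filter. Some libraries stood apart. CeD+GR 3 held gastric and Brunner gland transcripts (8 of 8 tested markers were highest there, with Tff2 at 116219 FPKM and Muc6 at 3268). Muc6, Gkn1, Gkn2, Muc5ac and Tff1 were at most 0.0839 FPKM in every other library. They passed the filter through CeD+GR 3, so their place there is built into the filter. Of the untested markers, Atp4a (0.211 FPKM) and Pga5 (0.227 FPKM) were also highest there, and Gif was at 0. The summed level of this marker list was 140705 FPKM there against 0 to 52.6 in the others. CeD 1 held pancreatic enzyme transcripts, with a summed level of 4626 FPKM against at most 86.3 elsewhere. CeD+GR 2 held fat cell transcripts, with a summed level of adipocyte markers of 471 FPKM against at most 109 elsewhere. The 3 replicate 1 libraries held more Paneth cell transcripts than the other 6 for 11 of 12 markers. Enterocyte markers of the small intestine were present in all 9 libraries, with summed levels from 9302 FPKM in CeD+GR 3 to 38500.0 FPKM in CeD 2.

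Per unit of gene length, the 9 genes covered a wide range of levels. Xbp1 was the most abundant in every library, with a mean of 93.8 FPKM over the 9 libraries, and Txndc5 ranked next in every library, with a mean of 53.3 FPKM. Sdc1 followed at 21.0 FPKM and Mzb1 at 13.4 FPKM, and Sdc1 exceeded Mzb1 in 8 libraries, the exception being control 3. Derl3 (4.51 FPKM), Pou2af1 (4.05 FPKM) and Prdm1 (3.48 FPKM) had ranges that overlapped each other, so their order does not hold beyond the spread. Tnfrsf17 averaged 1.96 FPKM, and Eaf2 was the lowest of the 9 in every library, with a mean of 0.828 FPKM. The reads behind the values differ accordingly. Tnfrsf17 rested on 12 to 47 reads per library and Eaf2 on 27 to 132, whereas Xbp1 rested on 2794 to 10745.

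Promoters were read for letters that factors of this programme bind, since Xbp1 and Pou2af1 act through known DNA elements. RefSeq promoters of build GRCm38.p6, each 300 bases from 250 before to 50 after a start site, were found for 8 of the genes, 12 promoters in all. The core of the unfolded protein response element, TGACGTGG, which Xbp1 binds, was searched on both strands and occurred in 0.676% of the 32851 promoters in the table. It was present in 1 promoter each of Pou2af1 and Txndc5, at 61 to 54 and at 138 to 131 bases before the start. The ER stress response element (CCAAT, 9 bases of any kind, then CCACG), added to the search after the data were seen, occurred in 0.119% of all promoters and in that of Derl3, on the strand opposite to the gene, 156 to 138 bases before the start. The windows below run 5′ to 3′ on the gene's strand with the matching bases in capitals. They lie at chr9:51213613-51213652 (plus strand) for Pou2af1, chr13:38528029-38528068 (minus strand) for Txndc5 and chr10:75893226-75893276 (plus strand) for Derl3. The Pou2af1 and Derl3 windows lie before the annotated start of the gene, and the Txndc5 window lies within the gene at an alternative start.
Pou2af1: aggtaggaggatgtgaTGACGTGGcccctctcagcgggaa
Txndc5: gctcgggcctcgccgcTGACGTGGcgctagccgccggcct
Derl3: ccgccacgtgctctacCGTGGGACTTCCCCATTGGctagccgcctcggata
The octamer ATGCAAAT, on which Pou2af1 acts together with octamer factors, was in 1.74% of all promoters and in 0 of the 12. The Prdm1 element core AGTGAAAG was in 1.32% of all promoters and also in 0 of the 12. These letters are a description of the windows read and do not show binding. The 3 genes with a match did not share 1 pattern over all 9 libraries. Their Pearson r was 0.79 for Derl3 with Pou2af1, 0.37 for Txndc5 with Pou2af1 and -0.013 for Derl3 with Txndc5. Without CeD+GR 3 these were 0.81, 0.85 and 0.54, so the lower values rest on that library.

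Of the receptors, Tnfrsf17 and Sdc1 had different orders over the libraries. Their Pearson r was -0.043 over 9 libraries and 0.60 without CeD+GR 3, so the value near 0 rests on that library. Tnfrsf17 (BCMA, chr16:11313812-11320074) receives the survival ligands APRIL and BAFF on plasma cells. Its levels were 2.49, 1.76 and 2.98 FPKM in control 1 to 3, 3.23, 1.19 and 1.27 FPKM in CeD 1 to 3, and 2.22, 1.56 and 0.901 FPKM in CeD+GR 1 to 3. The highest library was CeD 1 and the lowest CeD+GR 3, and the groups overlapped, with means of 2.41 ± 0.615, 1.90 ± 1.16 and 1.56 ± 0.659 FPKM (SD, n = 3 each). Sdc1 (syndecan-1 or CD138, chr12:8771323-8793715) is a heparan sulfate proteoglycan used to recognise plasma cells, and gut epithelium carries it as well. It stood at 25.3, 13.9 and 16.6 FPKM in the controls, 24.7, 18.9 and 11.7 FPKM in CeD, and 22.1, 8.75 and 46.7 FPKM in CeD+GR. CeD+GR held both the lowest and the highest library, and its mean was 25.8 ± 19.2 FPKM (SD, n = 3) against 18.6 ± 5.96 in control and 18.4 ± 6.48 in CeD.

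The transcription regulators differed in their order over the libraries. As a description over 9 libraries, the Pearson r with Jchain was 0.89 for Prdm1, 0.85 for Pou2af1, 0.36 for Eaf2 and -0.31 for Xbp1. Without CeD+GR 3 these were 0.85, 0.95, 0.26 and 0.44, so the negative value of Xbp1 rests on that library. Prdm1 (chr10:44437177-44528501), the repressor that ends the B cell state, was at 4.69, 3.05 and 4.91 FPKM in control, 3.97, 3.28 and 2.32 FPKM in CeD, and 5.01, 2.29 and 1.80 FPKM in CeD+GR. CeD+GR 1 was the highest library and CeD+GR 3 the lowest, so the groups overlapped. Xbp1 (chr11:5520659-5525893), the factor of the unfolded protein response, was at 85.6, 72.0 and 78.0 FPKM in control and 82.7, 78.8 and 87.8 FPKM in CeD. In CeD+GR it spread from 54.6 FPKM in replicate 2 over 102 FPKM in replicate 1 to 202 FPKM in replicate 3, so that both the lowest and the highest library came from this group.

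Pou2af1 (OBF-1, chr9:51213708-51240080) is a B cell coactivator that joins octamer factors on antibody promoters. It was at 8.55, 1.61 and 3.88 FPKM in control, 7.55, 1.50 and 1.43 FPKM in CeD, and 7.75, 1.62 and 2.54 FPKM in CeD+GR. In each group replicate 1 was the highest library, and all 3 replicate 1 libraries lay above the other 6. Eaf2 (chr16:36792884-36875003), a partner of the ELL transcription elongation factors, was at 0.616, 0.766 and 1.79 FPKM in control, 0.642, 0.429 and 0.722 FPKM in CeD, and 0.813, 1.12 and 0.560 FPKM in CeD+GR. Control 3 was the highest library. Eaf2 shares 44337 bases with Iqcb1 on the opposite strand, and no source used here gives the strand setting of the counting, so that reads of these genes cannot be told apart with certainty.

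The secretory machinery split as well. Derl3 (chr10:75893413-75895941) acts in the removal of misfolded proteins from the endoplasmic reticulum, and was at 7.17, 3.32 and 5.95 FPKM in control, 7.71, 1.74 and 3.23 FPKM in CeD, and 4.73, 4.17 and 2.58 FPKM in CeD+GR. CeD held both the highest and the lowest library. Txndc5 (chr13:38500079-38528824) is a protein disulfide isomerase that helps form the bonds of folding proteins. It was at 61.4, 28.8 and 33.4 FPKM in control, 59.6, 38.8 and 32.7 FPKM in CeD, and 46.3, 24.8 and 154 FPKM in CeD+GR. As with Xbp1 and Sdc1, replicate 2 of CeD+GR was the lowest library and replicate 3 the highest. The part of the fat cell transcripts in the low values of CeD+GR 2 was not tested.

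Mzb1 (chr18:35647266-35649367), a chaperone partner of the endoplasmic reticulum that aids antibody assembly, had its highest mean in control and its lowest in CeD+GR. It was at 17.8, 12.8 and 20.7 FPKM in control, 15.7, 9.89 and 11.3 FPKM in CeD, and 16.2, 7.30 and 8.72 FPKM in CeD+GR. The means were 17.1 ± 3.98, 12.3 ± 3.02 and 10.7 ± 4.78 FPKM (SD, n = 3 each). Mzb1 was lower in CeD than in the control of the same replicate number for all 3 numbers, though the labels do not say that same numbers mark pairs. CeD 1 and CeD+GR 1 lay above control 2, so the groups overlapped. The plot of levels by library shows these values for all 9 genes.

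**Figure D1:**
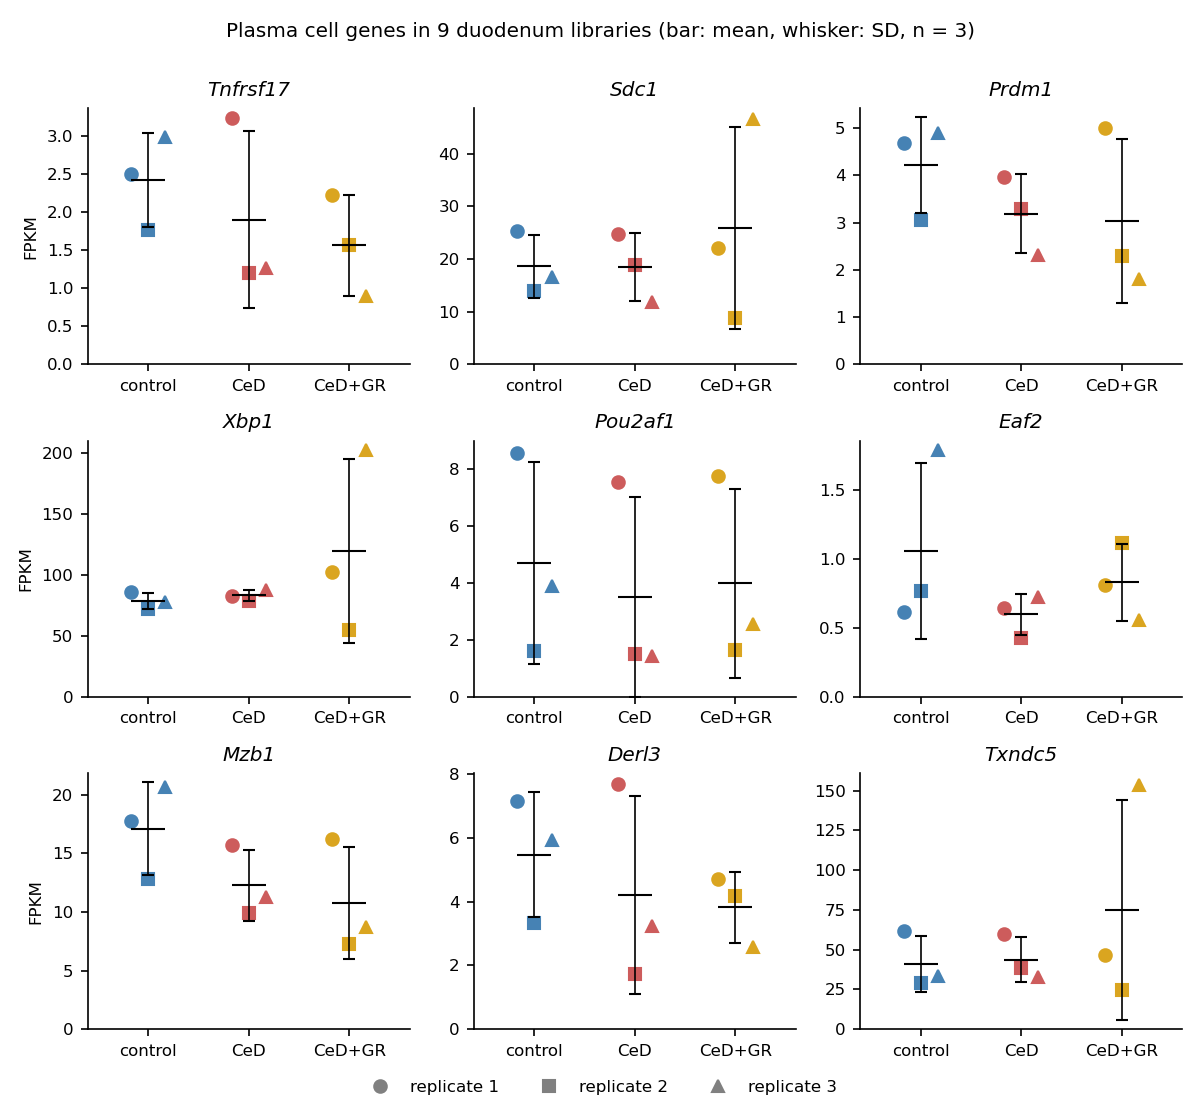
Levels of the 9 plasma cell genes in FPKM (y axes, linear and starting at 0) in control, CeD and CeD+GR libraries, with circles, squares and triangles for replicates 1, 2 and 3, a bar for the group mean and a whisker for the SD (n = 3). The Pou2af1 circles stand above all other points of that gene, and the CeD+GR triangle is the highest point for Xbp1, Txndc5 and Sdc1.

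In CeD against control, the comparison of the disease model with wild type mice, Mzb1, Derl3, Pou2af1, Prdm1, Tnfrsf17 and Eaf2 had lower means in CeD, by 0.35 to 0.49 on the log2 scale, and none of these differences passed the test. Fold changes are differences of log2(FPKM + 0.5), a scale on which the change of low genes comes out too small. The log2 fold change was -0.46 ± 0.33 (SE) for Mzb1, -0.49 ± 0.48 for Derl3, -0.48 ± 0.75 for Pou2af1, -0.35 ± 0.36 for Prdm1, -0.36 ± 0.38 for Tnfrsf17 and -0.44 ± 0.35 for Eaf2. Xbp1 (0.082 ± 0.41), Txndc5 (0.12 ± 0.61) and Sdc1 (-0.032 ± 0.55) lay near 0. With 1 library left out in turn, the sign changed for Pou2af1 (-1.16 to 0.047), Sdc1 and Txndc5. Derl3 kept its sign but ran from -0.99 to -0.053. Counted together, 7 of the 9 genes were below 0, against 49.4% of all tested genes, and their median was -0.36 against 0.0024 for all genes. With limma, 0 of the 9 genes were called at an adjusted p under 0.05, as were 0.0% of all genes, and the adjusted p of each was 1. At an unadjusted p under 0.05, 40 of all genes were higher and 63 lower, and limma-voom on recovered reads called 0 genes, with 27 higher and 37 lower at that unadjusted level. For 0 of the 9 genes did the groups not overlap, against 2.2% of all genes with CeD entirely higher and 2.49% with CeD entirely lower.

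In CeD+GR against CeD, the comparison of the treated with the untreated model, no plasma cell gene differed beyond the spread between libraries. Txndc5 had a log2 fold change of 0.41 ± 0.61 (SE), Xbp1 of 0.33 ± 0.41 and Sdc1 of 0.24 ± 0.55, and each had the opposite sign without CeD+GR 3 (-0.31, -0.15 and -0.33). Mzb1 was at -0.24 ± 0.33, Tnfrsf17 at -0.17 ± 0.38 and Prdm1 at -0.14 ± 0.36. Pou2af1 (0.26 ± 0.75), Eaf2 (0.27 ± 0.35) and Derl3 (0.044 ± 0.48) had values above 0. With 1 library left out in turn, the sign also changed for Tnfrsf17 (-0.40 to 0.20), Prdm1 (-0.52 to 0.11), Pou2af1 (-0.31 to 0.94) and Derl3 (-0.39 to 0.55). The median of the 9 genes fell below 0 without CeD 2 (-0.067), CeD 3 (-0.043) or CeD+GR 1 (-0.11). It was 0.082 without CeD+GR 3, 0.32 without CeD 1 and 0.11 without CeD+GR 2. With all libraries it was 0.24 against 0.0082 over all genes, with 6 of the 9 genes above 0. Limma called 0 of them and 0.0% of all genes, with adjusted p of 1 each. At an unadjusted p under 0.05, 167 genes were higher and 258 lower over all genes, and limma-voom called 0 with 105 and 277 at that level. Groups that did not overlap were found for 0 of the 9, against 3.01% of all genes higher and 3.04% lower in CeD+GR.

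CeD+GR against control uses the same libraries as the comparisons above, so its values are not separate evidence. Mzb1 had the largest difference, with a log2 fold change of -0.70 ± 0.33 (SE), an unadjusted p of 0.0636 and an adjusted p of 1 with limma. Tnfrsf17 was at -0.53 ± 0.38, Prdm1 at -0.50 ± 0.36, Derl3 at -0.44 ± 0.48, Pou2af1 at -0.22 ± 0.75 and Eaf2 at -0.17 ± 0.35, of which Pou2af1 (-0.78 to 0.31) and Eaf2 (-0.38 to 0.14) changed sign when 1 library was left out. Txndc5 (0.52 ± 0.61), Xbp1 (0.41 ± 0.41) and Sdc1 (0.21 ± 0.55) had values above 0, and without CeD+GR 3 they were at -0.20, -0.069 and -0.36. Limma called 0 of the 9 genes and 0.0% of all genes, with 193 genes higher and 207 lower at the unadjusted level of 0.05, and limma-voom called 0 with 136 and 199. Groups did not overlap for 0 of the 9, against 2.54% of all genes higher and 3.04% lower. The plot of fold changes sets the 3 comparisons side by side.

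**Figure D2:**
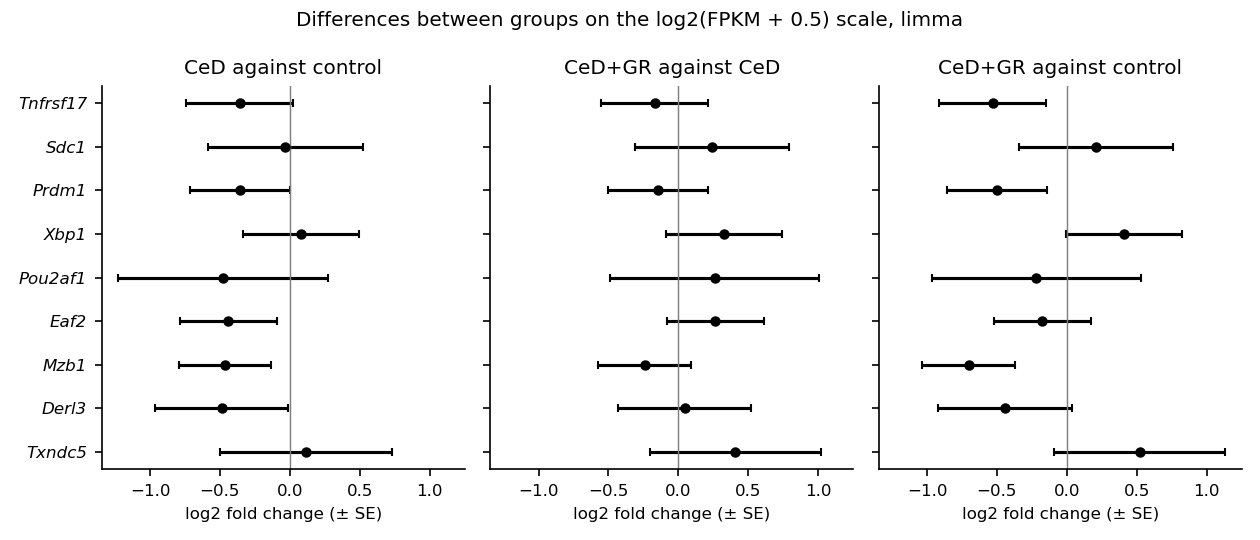
Log2 fold changes on the scale of log2(FPKM + 0.5) (x axis, point with ± SE) of the 9 genes (y axis) in each comparison, from limma over all 9 libraries. Mzb1, Tnfrsf17 and Prdm1 lie below 0 in each panel, and Xbp1 and Txndc5 lie above 0 in each, with no difference past the adjusted threshold.

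Across the libraries, the genes fell into sets that moved with different companions. The level of Mzb1 was compared with that of each of the other 8 genes by the Pearson r of log2(FPKM + 0.5) over the 9 libraries, with an exact two-sided permutation test and adjustment over the 8. The permutations treat the 9 libraries as exchangeable and take no account of group, of a possible pairing of control with CeD or of the replicate 1 libraries that stand apart. Prdm1 was closest to Mzb1, at r = 0.89 (exact permutation p = 0.00255, adjusted 0.0204; Spearman rho = 0.88, exact p = 0.00308, adjusted 0.0246). Tnfrsf17 followed at r = 0.83 (exact permutation p = 0.00767, adjusted 0.0307; rho = 0.80, exact p = 0.0138, adjusted 0.0553). Pou2af1 (r = 0.73) and Derl3 (r = 0.69) had exact permutation p of 0.034 and 0.0401, each 0.0802 after adjustment. Eaf2 (0.33), Sdc1 (0.19), Txndc5 (-0.027) and Xbp1 (-0.071) showed no relation that could be seen over 9 libraries. Without control 3 and CeD+GR 2, the libraries farthest from the median of Mzb1, r was 0.88 for Prdm1, 0.93 for Tnfrsf17 and 0.89 for Derl3. Within replicates 2 and 3 alone, r was 0.84 for Prdm1 and 0.80 for Tnfrsf17, each with an adjusted exact p of 0.267 over 6 libraries. Without CeD+GR 3, a comparison added after the data were seen, r with Mzb1 was 0.72 for Sdc1, 0.65 for Xbp1 and 0.60 for Txndc5, so the values near 0 for these genes rest on that library.

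All 36 pairs of the 9 genes were compared in the same way, with adjustment over the 36. Sdc1 and Txndc5 were the closest pair, at r = 0.95 (exact permutation p = 1.93e-05, adjusted 0.000694; rho = 0.98, exact p = 4.96e-05, adjusted 0.00179). Their r was 0.93 without CeD+GR 3 (adjusted exact p = 0.0299), 0.92 without CeD+GR 2 and CeD+GR 3 (adjusted exact p = 0.0886), and 0.95 within replicates 2 and 3 (adjusted exact p = 0.1). Tnfrsf17 and Derl3, the plasma cell survival receptor and the degradation factor, had r = 0.90 (exact permutation p = 0.00145, adjusted 0.026; rho = 0.95, exact p = 0.000353, adjusted 0.00635). Their r was 0.90 without CeD+GR 3 (adjusted exact p = 0.0299). It was 0.87 without CeD 1 and CeD+GR 3, the libraries farthest from the median of Tnfrsf17 (adjusted exact p = 0.0886), and 0.83 within replicates 2 and 3 (adjusted exact p = 0.206), so neither of the latter passed the threshold. Txndc5 with Xbp1 and Sdc1 with Xbp1 rested on CeD+GR 3, with r of 0.91 and 0.86 over 9 libraries (adjusted exact permutation p = 0.0271 and 0.0278) and 0.66 and 0.71 without it (0.154 and 0.114). The heat map of correlations shows both versions.

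**Figure D3:**
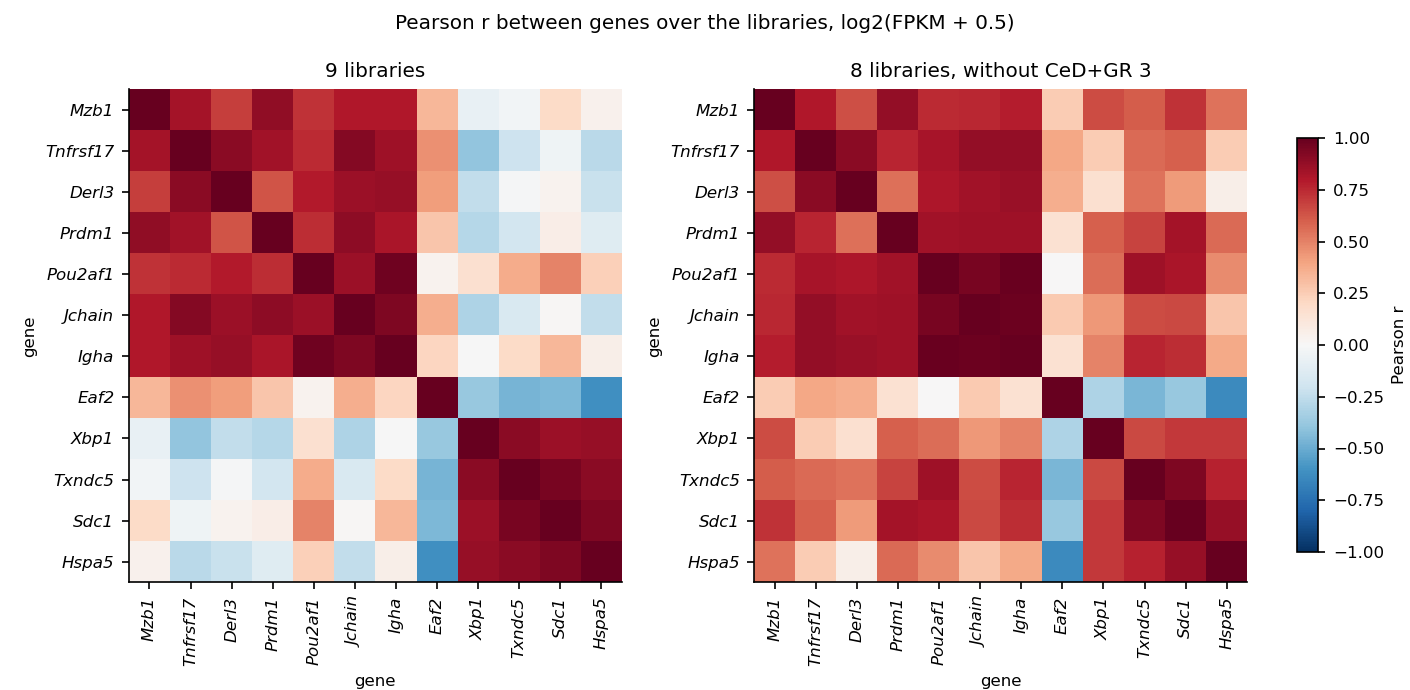
Pearson r of log2(FPKM + 0.5) between genes (both axes) over all 9 libraries (left) and over the 8 without CeD+GR 3 (right), with red for positive and blue for negative values, as a description without a test. Over 9 libraries Mzb1, Tnfrsf17, Derl3, Prdm1 and Pou2af1 form a red block with Jchain and Igha, and Xbp1, Txndc5 and Sdc1 form another with Hspa5. Without CeD+GR 3 most of the blue cells between the blocks turn red.

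The antibody transcripts themselves gave the scale against which these genes can be read. Igha, the constant region of the IgA heavy chain, was at 3068, 1190.2 and 2135 FPKM in control, 2612, 955 and 1044 FPKM in CeD, and 2801, 1190.5 and 1174 FPKM in CeD+GR. Jchain, which joins IgA units, was at 595, 322 and 526 FPKM, then 569, 249.6 and 258 FPKM, then 691, 336 and 197 FPKM in the same order. Both were highest in the replicate 1 libraries, with control 3 next. As ratios of FPKM within a library, Mzb1 to Jchain lay between 0.0217 and 0.0442 and Tnfrsf17 to Mzb1 between 0.103 and 0.214 over all 9 libraries. Among the 50 tested genes most like Pou2af1, 20 were immunoglobulin segments, against 185 (1.26%) of all tested genes. That number was 7 for Tnfrsf17, 6 for Derl3, 3 for Mzb1, 3 for Prdm1 and 0 for Sdc1, Txndc5, Xbp1 and Eaf2. The median r to all 185 segments was 0.81 for Pou2af1, 0.55 to 0.59 for Mzb1, Tnfrsf17, Derl3 and Prdm1, 0.42 for Sdc1, 0.30 for Txndc5, 0.11 for Xbp1 and -0.19 for Eaf2. The segments share antibody transcripts and libraries, so these are descriptions and have no test. With Lyz1, a Paneth cell gene, r over 9 libraries was 0.94 for Pou2af1, 0.76 for Prdm1 and 0.75 for Tnfrsf17. It was 0.72 for Derl3, 0.64 for Mzb1 and at most 0.35 for Sdc1, Txndc5, Xbp1 and Eaf2. The likeness to antibody transcripts was therefore shared with a transcript of another cell type.

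The protein-coding genes nearest to Mzb1 by Pearson r over the 9 libraries, leaving out the 9 genes themselves, were Nol4l (0.94), Upf2 (0.93), Ppil4 (0.92), Urad (0.92), 5031439G07Rik (0.91), Lrfn3 (0.91), Znrf2 (0.91), Rhot1 (0.91), Gpr55 (0.91) and Cul4a (0.90). Nol4l went from 8.52 FPKM in control 1 to 4.17 FPKM in CeD+GR 2. For Xbp1 they were Mesd (0.98), Gjb1 (0.98), Pwwp2b (0.97), Flywch2 (0.97), Fam110a (0.97), Cd164 (0.97), Creb3l4 (0.97), Lmf1 (0.97), Denr (0.97) and Pop5 (0.97). All 10 were highest in CeD+GR 3, for example Creb3l4, an endoplasmic reticulum transcription factor, at 88.3 FPKM there against at most 2.87 FPKM elsewhere.

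**Figure D4:**
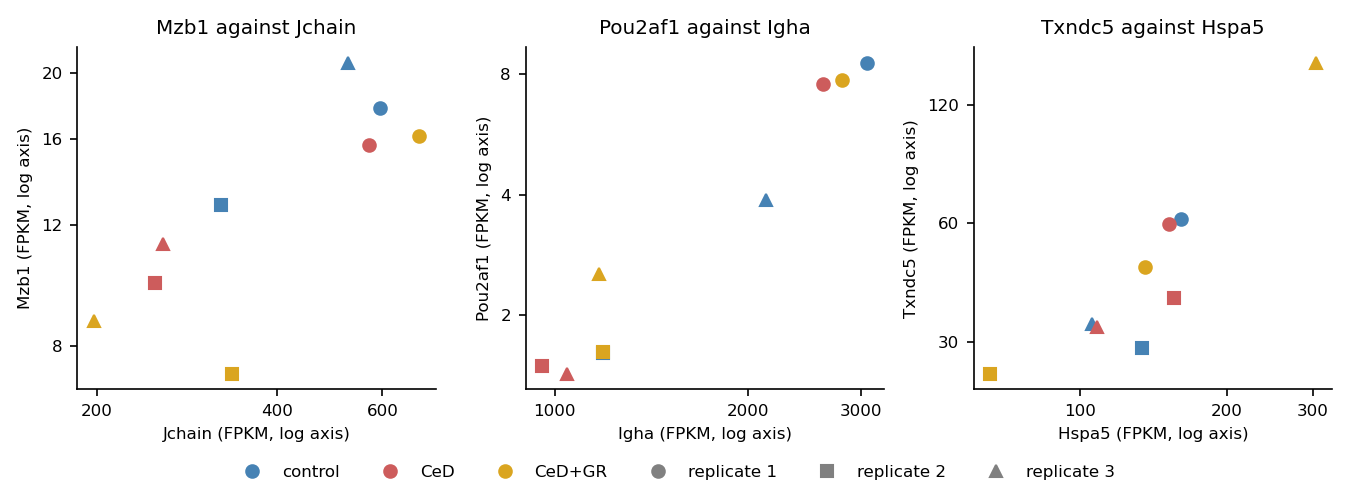
FPKM on log axes of Mzb1 against Jchain (left), Pou2af1 against Igha (middle) and Txndc5 against Hspa5 (right), 1 point per library, with colour for the group and shape for the replicate. The 3 replicate 1 circles lie at the upper right of the middle panel and CeD+GR 3 stands apart in the right panel, at 154 FPKM of Txndc5 and 304 FPKM of Hspa5.

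CeD+GR 3 was the library with gastric and Brunner gland transcripts. Xbp1, Txndc5 and Sdc1 were higher there than in every other library (3 of 9 genes, 33.3%, against 23.8% of all tested genes), and Tnfrsf17 and Prdm1 were lowest there (22.2%, near the 20.4% of all tested genes). The ratio of Xbp1 to Mzb1 was 23.2 in this library and 3.77 to 7.96 in the other 8. Txndc5 to Mzb1 was 17.6 against 1.61 to 3.92, and Sdc1 to Mzb1 was 5.35 against 0.802 to 1.91, whereas Derl3 to Mzb1 (0.296) stayed inside the range of the others, 0.176 to 0.572. Of 32 tested genes for folding and the unfolded protein response, 21 were highest in CeD+GR 3 (65.6%), among them Hspa5, the main chaperone of the endoplasmic reticulum, at 304 FPKM against 65.4 to 161 FPKM. Fkbp11 and Ern2, chosen after their values were seen, were at 20.2 and 33.5 FPKM there against at most 2.09 and 3.72 FPKM elsewhere. Of the 10 tested antibody chain genes 0 were highest in this library. The part of the gland transcripts in the levels of Xbp1, Txndc5 and Sdc1 was not tested.

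**Figure D5:**
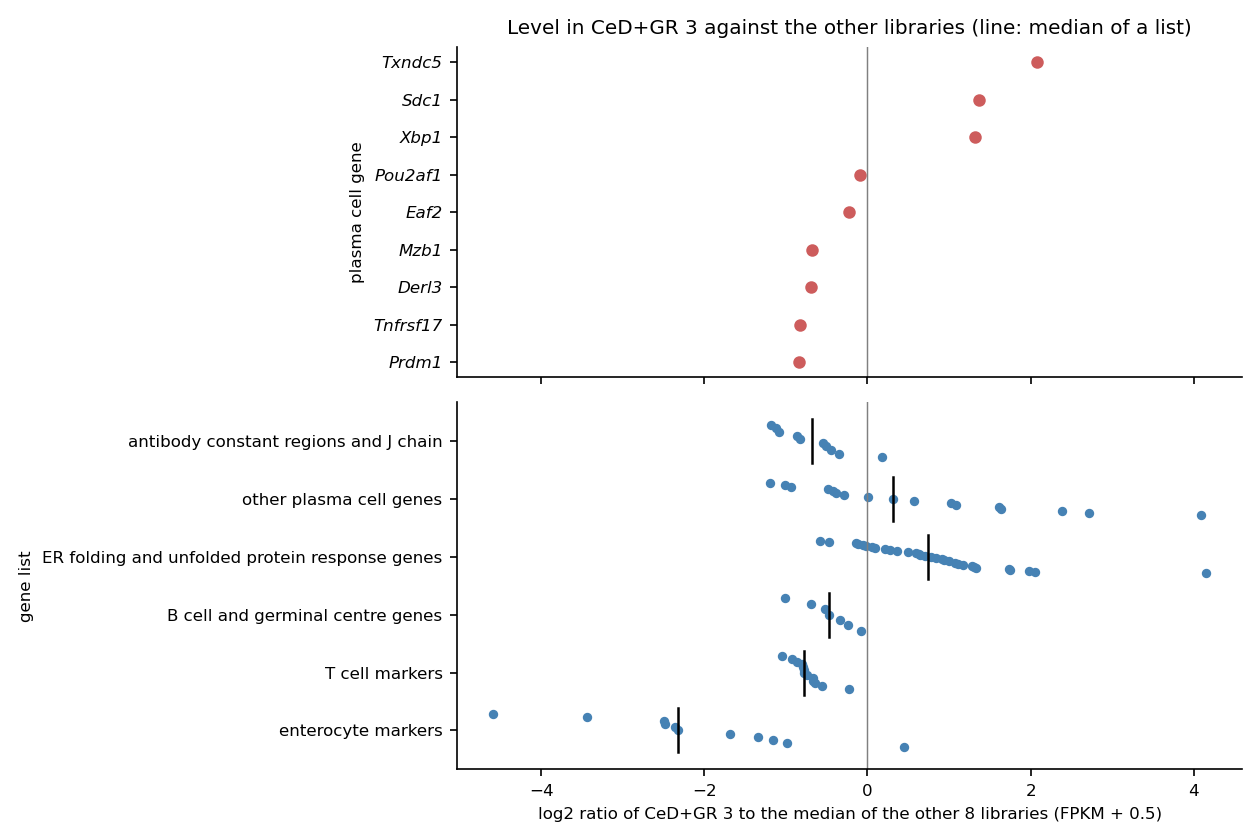
Log2 ratio of the level in CeD+GR 3 to the median of the other 8 libraries (x axis, FPKM + 0.5) for the 9 plasma cell genes (upper panel) and the genes of 6 lists (lower panel, 1 point per gene, black line for the list's median). Txndc5, Sdc1 and Xbp1 lie to the right of 0 and the other 6 genes to the left of it. The median was 0.74 for the folding list and -0.68 for the antibody chains.

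The replicate 1 libraries also stood apart for some genes. Pou2af1 was the 1 gene of the 9 (11.1%) with all 3 replicate 1 libraries above the other 6, against 9.06% of all tested genes, so the count is near the background. The same order held for 4 of 10 antibody chain genes, including Igha, Igkc and Jchain, for 8 of 10 macrophage and dendritic cell markers and for 11 of 12 Paneth cell markers. Lyz1, the Paneth cell lysozyme, was at 259, 564 and 415 FPKM in the replicate 1 libraries and at 13.0 to 43.6 FPKM in the others. The part of this difference in the spread of Pou2af1 was not tested. In the fit of replicates 2 and 3 alone, Mzb1 had a log2 fold change of -0.60 in CeD against control, Derl3 -0.78, Tnfrsf17 -0.70 and Pou2af1 -0.63, and limma called 0 genes.

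Genes that work with the plasma cell programme were read from fixed lists, and limma called 0 in each list in each comparison. Of 10 tested antibody constant regions and the J chain, 7 were below 0 in CeD against control, with a median log2 fold change of -0.51. The median was 0.20 for CeD+GR against CeD, and it was -0.35 for CeD+GR against control. Igha was at -0.53 ± 0.60 (SE), Igkc at -0.63 ± 0.73 and Jchain at -0.49 ± 0.53 in CeD against control. Ighg2c, an IgG heavy chain, went the other way, at 1.41 ± 0.62 in CeD against control and 1.63 ± 0.62 in CeD+GR against control, and its groups overlapped. Iglc2, a light chain, was at -0.57 ± 0.37 and -0.76 ± 0.37 in the same order. Its CeD libraries (14.2 to 24.3 FPKM) lay entirely below control (25.6 to 31.1 FPKM). Iglc2 was the 1 of the 10 genes with CeD entirely below control, against 2.49% of all tested genes.

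Of 17 tested further plasma cell genes, 12 were below 0 in CeD against control, with a median of -0.14, and the median was 0.14 for CeD+GR against CeD and -0.0034 for CeD+GR against control. Irf4, a factor that drives plasma cell maturation, was at 3.13, 0.460 and 1.46 FPKM in control, 3.15, 0.566 and 0.718 FPKM in CeD and 2.23, 1.26 and 0.474 FPKM in CeD+GR, and so followed the replicate 1 order as Pou2af1 did. Cd27, a receptor of memory B cells, plasma cells and T cells, was at 0.779, 0.939 and 1.53 FPKM in control against 0.554, 0.268 and 0.417 FPKM in CeD. These 2 groups did not overlap, at a log2 fold change of -0.78 ± 0.31 and an adjusted p of 1 with limma. Cd27 was the 1 of the 17 genes with CeD entirely below control, against 2.49% of all tested genes. Mean levels of 0.413 FPKM (CeD) and 0.481 FPKM (CeD+GR) lay under the filter of 0.5 FPKM. Cd27 passed it through the control mean of 1.08 FPKM, and it was named for its small unadjusted p. A lower level in CeD than in control is thus partly built into this choice. T cell markers were below 0 for 13 of 13 in the same comparison, with a median of -0.58, and their part in Cd27 was not tested.

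Of 32 tested genes for folding in the endoplasmic reticulum and the unfolded protein response, 16 were below 0 in CeD against control, with a median log2 fold change of -0.012. The median was 0.17 for CeD+GR against CeD, with 21 genes above 0, and 0.076 for CeD+GR against control, with 20 above 0. The list's mean log2 level was 4.88 and 4.51 in CeD+GR 1 and 2 and 5.71 in CeD+GR 3. It was 4.80 to 5.00 in CeD and 4.83 to 4.98 in control, so only CeD+GR 3 lay above both groups. Herpud1, a part of the degradation machinery in that membrane, was at 81.8 to 99.0 FPKM in CeD and 109 to 160.0 FPKM in CeD+GR. These groups did not overlap, at a log2 fold change of 0.62 ± 0.28 (SE) and an adjusted p of 1 with limma. Herpud1 was the 1 of the 32 genes with CeD+GR entirely above CeD, against 3.01% of all tested genes.

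The 11 tested survival ligands and receptors had a median of -0.11 in CeD against control, -0.017 in CeD+GR against CeD, and 0.028 when CeD+GR was set against control. Among them, Tnfsf13 (APRIL) and Tnfsf13b (BAFF), the ligands of Tnfrsf17, were at 0.31 ± 0.32 and 0.090 ± 0.34 (SE) in CeD against control and at -0.56 ± 0.32 and -0.20 ± 0.34 in CeD+GR against CeD. Tnfrsf13b (TACI), another receptor of both, was at -0.41 ± 0.35 in CeD against control and -0.61 ± 0.35 in CeD+GR against control. Tnfrsf13c, the BAFF receptor of B cells, was at 0.670 to 1.10 FPKM in control and 0 to 0.448 FPKM in CeD+GR. These groups did not overlap, at -0.83 ± 0.37 and an adjusted p of 1 with limma. Tnfrsf13c was the 1 of the 11 survival genes with CeD+GR entirely below control, against 3.04% of all tested genes. Its CeD+GR mean of 0.296 FPKM lay under the filter of 0.5 FPKM, which it passed through the other groups. The 11 genes for IgA homing and transport had medians of -0.079, -0.28 and -0.30 in the same order, and Pigr was at 1643 to 2331 FPKM in control, 1436 to 1762 FPKM in CeD and 775 to 1422 FPKM in CeD+GR. Pigr was the 1 of the 11 homing and transport genes with CeD+GR entirely below control, and the 1 with CeD+GR entirely below CeD. Over all tested genes each share was 3.04%. The log2 fold change of Pigr in CeD+GR against control was -0.87 ± 0.39, with an adjusted p of 1 with limma. In that comparison 11 of 11 enterocyte markers were below 0, with a median of -0.48. CeD+GR 3 was the lowest library for 9 of these 11 markers. Their summed level was 30976 and 35492 FPKM in CeD+GR 1 and 2 and 9302 FPKM in CeD+GR 3, against 17815 to 36348 FPKM in control. The part of the enterocyte transcripts in Pigr was not tested.

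Of 19 listed B cell and germinal centre genes that the table held, 7 passed the filter, with a median of 0.094 for the model against control, -0.21 for CeD+GR against CeD, and -0.032 for CeD+GR against control. Ms4a1 (CD20), a surface marker of B cells, was low, at 0.0221 to 0.177 FPKM. Cd79a, the signalling chain of the B cell receptor, was at 2.22 to 7.77 FPKM, with the 3 replicate 1 libraries highest. Spib, a factor of B cells and of M cells, was at 2.35 to 4.84 FPKM in CeD and 0.981 to 2.10 FPKM in CeD+GR. These groups did not overlap, at a log2 fold change of -0.82 ± 0.35 (SE) and an adjusted p of 1 with limma. Spib was the 1 of the 7 tested genes with CeD+GR entirely below CeD, against 3.04% of all tested genes.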

How the data were processed

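RNA of 9 mouse duodenum samples was used, grouped by the treatment that the labels give. The authors deposited 1 table of FPKM per gene, with each gene's length and position. Per the submitters' processing notes, which give neither roles nor order, the build was mm10 and the tools were DESeq2 1.20.0, featureCounts 1.5.0-p3, HISAT2 2.0.5 and fastp. For the annotation release, strand setting and FPKM formula, the entry is "not given in the sources used here". Multiplied by gene length, the deposited FPKM came in whole steps that are constant within a library (tolerance 0.1 reads), and these steps were counted as recovered reads.

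Values were taken as log2(FPKM + 0.5), and genes averaging under 0.5 FPKM were left out. The group comparisons came from limma 3.58.1 (R 4.3.3), fitted once over all 9 libraries with a mean-variance trend, two-sided, with Benjamini-Hochberg adjustment over the 14683 genes at 0.05. An exact permutation test of 3 libraries against 3 has a smallest possible p of 0.1. The fit was tested on simulated data. Correlations used exact permutations of the libraries.

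The 9 genes and all lists were chosen with earlier results of these data known. Named are the 9 genes, up to 4 genes per list with the smallest unadjusted p, 15 genes such as Igha, Pigr and Lyz1, and the 10 protein-coding genes most like Mzb1 and most like Xbp1. Fkbp11 and Ern2 were chosen after their values were seen, as were Gm22615, Tff2 and the other named gastric and Brunner gland genes besides Muc6. Deviations from the group means of same-numbered CeD and control libraries correlated at 0.71, 0.37 and 0.41. CeD 3 correlated with control 2 at 0.46, above the values for numbers 2 and 3. These values therefore do not show that numbers 2 and 3 are pairs, and the labels give no pairing. The numbers were read as pairs there for description and for the block fit only. For numbers 1 to 3, CeD+GR libraries correlated with same-numbered CeD libraries at 0.37, 0.25 and -0.12. With same-numbered control libraries they correlated at 0.41, 0.40 and -0.11. The block fit covered all 9 libraries, so it set CeD+GR libraries together by number too. Alternatives were other pseudocounts, filters and scalings, limma-voom on recovered reads, the replicate number as a block, replicates 2 and 3 only, and each library left out.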

Additional observations from a re-analysis of the deposited data

How the results depend on the processing

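No setting called any of the 9 genes. Rescaling the libraries by median of ratios left the median of the 9 in CeD against control at -0.359, as in the main fit. The deposited values were thus close to that scaling already, so it is not a separate check. Genes called in CeD+GR against control numbered 0 to 1 when 1 library was left out, the 1 being Gm22615 without control 1 (log2 fold change -4.31, limma adjusted p 0.0137). With the replicate number as a block, which sets the same-numbered libraries of all 3 groups together, 0 genes were called. Mzb1 was then at -0.46 ± 0.23 (SE) in CeD against control. That SE holds only if same numbers mark matched libraries in all 3 groups, CeD+GR included. The block changed no call. Of the 27 fold changes, 11 kept their sign under all 12 settings and all 9 omissions of 1 library, 12 changed sign under another setting and 15 when 1 library was left out. Without both CeD 1 and CeD+GR 3, the fold changes that changed sign were Txndc5 in CeD against control (-0.13), Xbp1 (-0.15), Txndc5 (-0.068), Sdc1 (-0.091), Mzb1 (0.045), Prdm1 (0.26) and Tnfrsf17 (0.45) in CeD+GR against CeD, and Xbp1 (-0.069), Txndc5 (-0.20) and Sdc1 (-0.36) in CeD+GR against control. With quantile normalization Sdc1 was at 0.011 in CeD against control and Derl3 at -0.040 in CeD+GR against CeD. The cause of these changes was not tested. Leaving out each library gave ranges across 0. In CeD against control they were -1.16 to 0.047 for Pou2af1, -0.27 to 0.25 for Sdc1 and -0.13 to 0.44 for Txndc5. In CeD+GR against CeD they were -0.39 to 0.55 for Derl3, -0.31 to 0.94 for Pou2af1, -0.52 to 0.11 for Prdm1, -0.33 to 0.85 for Sdc1, -0.40 to 0.20 for Tnfrsf17, -0.31 to 0.99 for Txndc5 and -0.15 to 0.79 for Xbp1. In CeD+GR against control they were -0.38 to 0.14 for Eaf2, -0.78 to 0.31 for Pou2af1, -0.36 to 0.82 for Sdc1, -0.20 to 1.11 for Txndc5 and -0.069 to 0.87 for Xbp1. For Mzb1 they stayed below 0 in each comparison, at -1.03 to -0.48 in CeD+GR against control. Likeness to Mzb1 was -0.032 for Sdc1, 0.80 for Tnfrsf17 and 0.84 for Prdm1 in replicates 2 and 3, where Tnfrsf17 and Prdm1 were no longer past the threshold. Without the farthest libraries it was -0.14 for Sdc1 and 0.89 for Derl3, now past the threshold. Without CeD+GR 3 it was 0.80 for Tnfrsf17 (adjusted exact permutation p 0.0761), 0.60 for Txndc5 and 0.65 for Xbp1. Low read numbers limit Tnfrsf17 and Eaf2 most.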
